A study of Caenorhabditis elegans with 154 samples.

Results

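Moderate crowding during L1 arrest was examined by comparing single *C. elegans* larvae hatched at 20 eggs/μL with larvae hatched at 1 egg/μL. The members were chosen by their labelled density alone, and they number 63, where the series holds 91 further animals. They comprised 20 *fog-2* and 16 N2 animals at 20 eggs/μL, and 14 *fog-2* and 13 N2 animals at 1 egg/μL. N2 is the wild-type hermaphrodite strain. The *fog-2* strain carries *fog-2(q71)*, which leaves XX animals without sperm, so its embryos come from matings and may be of either sex, and the sex of the picked L1s is not labelled. Embryos of all groups were obtained by bleaching gravid adults, were set to their density in M9 buffer with polyethylene glycol, and hatched with no food. L1s were picked singly the next day, at 22 hr by the study's methods, and each gave its own Smart-Seq2 library. The further animals, 44 at 5 eggs/μL and 47 at 100 eggs/μL, are used here only to place the 20 eggs/μL level among the densities. The sources do not say whether the animals of a density came from separate tubes. If they shared a tube, the p-values cover no more than the spread among the animals sampled.

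Newly hatched larvae without food stop at the first larval stage before the postembryonic divisions begin, and resume when food returns. Insulin-like peptides, acting through the receptor DAF-2 and the transcription factor DAF-16, govern this arrest and its stress resistance. Larvae also release small molecules, among them the ascarosides made by peroxisomal beta-oxidation, by which density is sensed, for instance in the choice to form a dauer larva. The study found that medium conditioned by *daf-22* mutants, which make no wild-type ascarosides, still repressed a *lips-15* reporter in arrested L1s.

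The deposited values are TPM, a length-corrected share of transcripts, in which the transcripts of an animal are scaled to a fixed sum, so that a level is a share of what that animal held. Of 47639 transcript rows, 14261 reached 1 TPM in 13 or more of the 63 animals and were tested. Limma was fitted to log2(TPM + 1) with a mean-variance trend and a term for strain, and rows with a Benjamini-Hochberg adjusted p under 0.05 are called higher or lower. Log2 fold changes (log2FC) compare 20 with 1 egg/μL on this scale, which shrinks the change of low transcripts, and their median over all rows was 0.08. The tables hold no read counts, and a transcript listed at 0 is not shown to be absent. Rows at 1 TPM or more in *fog-2* numbered 11165 ± 1421 (SD, n = 20) at 20 eggs/μL, against 11191 ± 1772 at 1 egg/μL (SD, n = 14; permutation test, adjusted p = 0.97). In N2 they numbered 10600 ± 1401 (SD, n = 16) and 9983 ± 1056 (SD, n = 13) at these densities (permutation test, adjusted p = 0.60). Markers of muscle, intestine, neurons, pharynx, hypodermis and the excretory cell were present in every animal, yolk and major sperm protein transcripts had no tested row, and 0 of the summed marker lists passed in either strain (permutation tests, smallest adjusted p = 0.217, for oocyte and early embryo markers in *fog-2*). The 7 pharynx marker rows had a median log2FC of -0.67 with 0 past the threshold. Each library is a whole animal, so fewer cells of a type and less RNA per cell cannot be told apart. The *fog-2* transcript itself had a median of 0 TPM in all 4 groups and a log2FC of 0.35 (SE 0.30, limma, adjusted p = 0.714). It is carried as a mutant allele, so its level is no check of the strain labels.

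At 20 eggs/μL, 130 rows were higher and 152 lower than at 1 egg/μL, which are 0.912% and 1.07% of the rows tested, and 1771 rows had an unadjusted p under 0.05. These shares are to be set beside each count of a gene list below. Among called rows, the lowest log2FC values were those of *nspe-1* (-9.47), *nspe-2* (-8.26), *lips-15* (-5.71), *ins-20* (-5.03) and *pud-2.2* (-4.53), while the highest were those of *F07C4.6* (3.02), *F23F12.12* (2.55) and *hsp-12.6* (2.55). Animals' names carry a digit after the density, from 1 to 3, whose meaning is not given in the labels. Without the animals of digit 3, among them 14 of the 27 at 1 egg/μL, 4 rows were higher and 12 lower, and without those of digit 2, 31 and 32. All 130 higher and all 152 lower rows kept their sign without each digit in turn. These fits reuse most of the animals on which the rows were called, so a kept sign is no independent check. Of the higher and lower rows, 2 and 9 passed each time. Among these were *nspe-1*, *nspe-2*, *lips-15*, *ins-20*, *ins-26*, *dach-1*, *F35E8.10*, *F23F12.12* and *F22B7.9*.

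The deepest falls lay in a stretch of chromosome II that holds nematode-specific peptide genes of the nspe family and lipase-like genes of the lips family. *nspe-1* (WBcel235, chromosome II, 12620649 to 12620864, minus strand) ranged from 0 to 17.3 TPM in *fog-2* animals at 20 eggs/μL (median 0) and from 325 to 1959 TPM at 1 egg/μL (median 931). In N2 it ranged from 0 to 7.77 TPM at 20 eggs/μL (median 0) and from 354 to 4497 TPM at 1 egg/μL (median 1135). The densities did not overlap in either strain, and the transcript was listed at 0 in 15 of 20 *fog-2* and 14 of 16 N2 animals at 20 eggs/μL and in 0 at 1 egg/μL. The log2FC was -9.47 (SE 0.30, limma, adjusted p = 1.15e-39).

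Its neighbor *nspe-2* (12619173 to 12619388, minus strand) had a value above 0 in a single animal per strain at 20 eggs/μL, at 12.9 TPM in *fog-2* and 6.65 TPM in N2. At 1 egg/μL it ranged from 61.5 to 662 TPM in *fog-2* (median 291) and from 29.1 to 1501 TPM in N2 (median 453). Again no animal at 20 eggs/μL reached the lowest animal at 1 egg/μL, and the log2FC was -8.26 (SE 0.27, limma, adjusted p = 2.04e-38). These 2 rows were the only ones of all tested whose densities did not overlap in both strains (0.014%), and 0 rows showed this in the other direction.

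*lips-15*, a lipase-like gene (12604386 to 12607027, plus strand), fell less completely. In *fog-2* it ranged from 0 to 359 TPM at 20 eggs/μL (median 48.8) and from 309 to 3206 TPM at 1 egg/μL (median 1120). In N2 it ranged from 0 to 1387 TPM at 20 eggs/μL (median 42.5) and from 208 to 5366 TPM at 1 egg/μL (median 2370). Of the animals at 20 eggs/μL, 19 of 20 *fog-2* and 12 of 16 N2 lay below the lowest animal of their strain at 1 egg/μL, while the others overlapped. The log2FC was -5.71 (SE 0.61, limma, adjusted p = 2.45e-10).

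**Figure D1:**
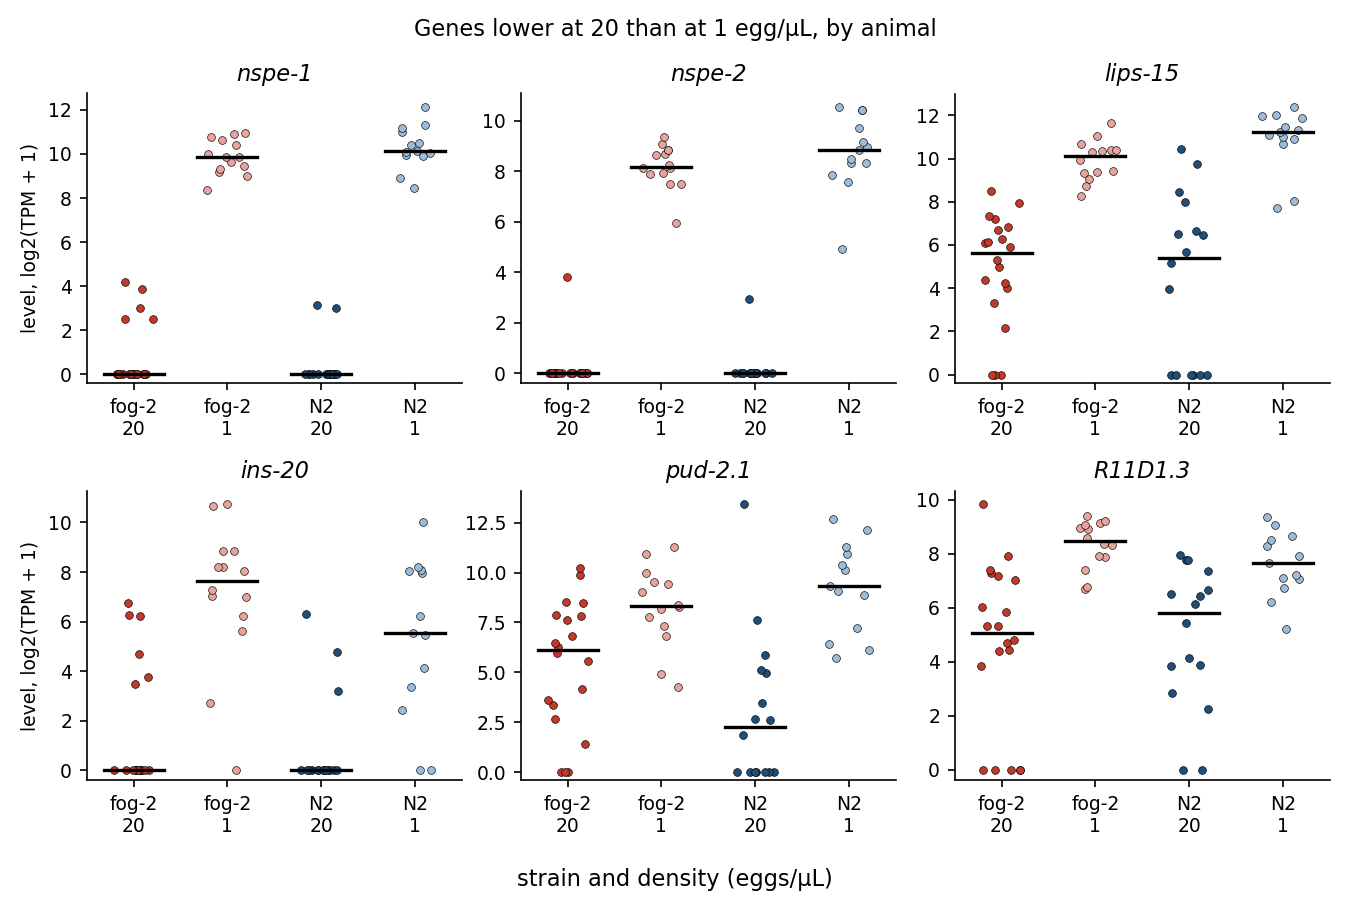
Levels of *nspe-1*, *nspe-2*, *lips-15*, *ins-20*, *pud-2.1* and *R11D1.3* as log2(TPM + 1) in each animal (points) of *fog-2* and N2 at 20 and 1 egg/μL, with the median of each group as a bar. *nspe-1* and *nspe-2* do not overlap between densities, and the other 4 genes spread widely among the animals at 20 eggs/μL.

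Of 9 tested rows of this stretch, 7 were lower and 0 higher at 20 eggs/μL, and their median log2FC was -2.69, against 0.08 over all rows. *nspe-6* had a log2FC of -3.69, *lips-16*, which the annotation lists as a pseudogene, of -2.69, *nspe-4* of -2.02 and *nspe-3* of -1.78. The call of *nspe-4* (limma, adjusted p = 0.0462) was lost on leaving out any 1 of 38 of the animals, and without the animals of name digit 3 the rows lower numbered 3. *nspe-5* (-1.09, limma, adjusted p = 0.321) and *nspe-7* (-0.43, adjusted p = 0.844) did not pass. *lips-16* was listed at 0 in all 20 *fog-2* animals at 20 eggs/μL and in 2 of 14 at 1 egg/μL, where its median was 19.7 TPM. In N2 it stood at 0 in 15 of 16 and 9 of 13 animals at these densities. *nspe-3* was listed at 0 in every animal of both strains at 20 eggs/μL, and at 1 egg/μL in 11 of 14 *fog-2* and 3 of 13 N2 animals. It met the filter through animals at 1 egg/μL alone, and *lips-16* almost wholly through them. *nspe-1* and *nspe-2* had too few animals above 0 at 20 eggs/μL to meet it without those at 1 egg/μL. The direction of these rows was thus close to fixed by the filter, although they enter the count. Their p-values are to be read with that limit. Similar nspe sequences may draw on the same reads, which leaves the values of single members uncertain. The 2 lips genes, *nspe-1* and *nspe-2* were picked out by the study on animals that include these, and the count is thus no independent evidence of direction.

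The pud genes on chromosome V, named for proteins that are upregulated in *daf-2* mutants, were lower as a group with both strains merged. *pud-2.1* ranged from 0 to 1212 TPM at 20 eggs/μL (median 68.3) and from 18.6 to 2488 TPM at 1 egg/μL (median 322) in *fog-2*. In N2 the median was 3.98 TPM at 20 eggs/μL, where 13 of 16 animals lay below the lowest of the 1 egg/μL animals, and 636 TPM at 1 egg/μL, where levels ranged from 52.4 to 6564 TPM. A single N2 animal at 20 eggs/μL stood at 10993 TPM, above every other animal of the comparison. The log2FC was -4.50 (SE 0.73, limma, adjusted p = 4.29e-05), and between -4.80 and -4.34 with each animal left out in turn.

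*pud-2.2* (-4.53), *pud-1.1* (-3.97) and *pud-1.2* (-3.87) fell with it, so that 4 of 6 pud and pudl rows were lower and 0 higher. With the strains fitted alone, 0 of the 6 rows passed in *fog-2*, and 2 were lower and 0 higher in N2. The rows come in near-identical pairs, *pud-1.1* with *pud-1.2* and *pud-2.1* with *pud-2.2*, which may share reads and are not independent measurements. The related *pudl-1* and *pudl-2* on chromosome IV had log2FC values of 1.63 (limma, adjusted p = 0.0924) and 0.83 (adjusted p = 0.584). Without the animals of name digit 2, 0 of the 6 rows passed and the median over the list was -2.44, against -3.92 with all animals.

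Of 20 insulin-like peptide rows, 3 were lower and 0 higher, where 1.07% of all rows were lower. The list median was 0.01, which quantile normalization turned to -0.10. *ins-20* was listed at 0 in 14 of 20 *fog-2* animals at 20 eggs/μL and in 1 of 14 at 1 egg/μL, with medians of 0 and 208 TPM and highest values of 108 and 1718 TPM. In N2 it was listed at 0 in 13 of 16 and 2 of 13 animals at these densities, with medians of 0 and 46.2 TPM and highest values of 78.3 and 1048 TPM. The densities overlapped in both strains, and the log2FC was -5.03 (SE 0.64, limma, adjusted p = 8.64e-08). *ins-20* too had too few animals above 0 at 20 eggs/μL to meet the filter without those at 1 egg/μL.

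*ins-26* had medians of 0 and 9.62 TPM in *fog-2* and N2 at 20 eggs/μL, with highest values of 100.5 and 132 TPM. At 1 egg/μL its medians were 114 and 128 TPM, and the highest values 269 and 319 TPM. The log2FC was -3.42 (SE 0.58, limma, adjusted p = 9.38e-05), and the groups overlapped in both strains. *ins-6*, which is known to favor exit from the dauer stage, had a median of 0 TPM in both strains at 20 eggs/μL, where the highest values were 12.5 TPM in *fog-2* and 60.6 TPM in N2. At 1 egg/μL its medians were 18.9 TPM in *fog-2* and 22.2 TPM in N2, with highest values of 81.2 and 73.4 TPM. The log2FC was -2.80 (SE 0.50, adjusted p = 1.92e-04 from the same test). *daf-28*, a further insulin-like gene, had -0.91 (limma, adjusted p = 0.24).

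Downstream of these peptides, 1 of 11 insulin receptor pathway rows was higher and 0 were lower, with a median of 0.52. The higher row was *akt-1*, which encodes a kinase that restrains DAF-16. Its medians in *fog-2* were 184 TPM at 20 eggs/μL and 94.3 TPM at 1 egg/μL, and in N2 82 and 56.2 TPM. The log2FC was 0.85 (SE 0.23, limma, adjusted p = 0.0241), and *rop-1* overlaps *akt-1* on the opposite strand. The kinase gene *sgk-1* had -0.64 (limma, adjusted p = 0.336). Of the dauer TGF-beta pathway, a second route by which food and density act on dauer formation, 0 of 6 rows passed. Its ligand gene *daf-7* had a log2FC of -1.57 (limma, adjusted p = 0.133), with medians of 26.1 TPM at 20 eggs/μL and 122 TPM at 1 egg/μL in *fog-2*, and 171 and 132 TPM in N2. *daf-5*, a Ski-family cofactor gene of that pathway, had -0.85 (adjusted p = 0.0806), and 0 of 21 G protein alpha subunit rows passed, *gpa-12* having -1.0 (adjusted p = 0.15). *dmd-7*, a DM-domain gene, fell by 1.01 (SE 0.27, limma, adjusted p = 0.027). Of 98 rows of flp and nlp neuropeptides 1 was higher, a share near the 0.912% of all rows. It was *nlp-28* (0.81), whose family is known for antimicrobial peptides of the epidermis.

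Several genes outside these families also fell. *R11D1.3* had medians of 32.9 TPM at 20 eggs/μL and 352 TPM at 1 egg/μL in *fog-2*, and 56.2 and 199 TPM in N2. In *fog-2* 14 of 20 animals at 20 eggs/μL lay below the range at 1 egg/μL and 1 above it, at 920 TPM, and the log2FC was -3.26 (SE 0.54, limma, adjusted p = 6.50e-05). *F35E8.10* and *F35E8.13* on chromosome V are near copies and reads may not tell them apart. *F35E8.10* also lies across from *F35E8.19*. *F35E8.10* had medians of 5.57 TPM at 20 eggs/μL and 412 TPM at 1 egg/μL in *fog-2*, where 15 of 20 animals lay below the lowest at 1 egg/μL, and medians of 37.1 and 209 TPM in N2. Its log2FC was -3.91 (SE 0.61, limma, adjusted p = 1.96e-05), and *F35E8.13* had -3.72. *ilys-5*, an invertebrate-type lysozyme gene, had medians of 10.1 TPM at 20 eggs/μL and 134 TPM at 1 egg/μL in *fog-2* and of 10.8 and 151 TPM in N2 (log2FC -3.59, SE 0.59). *dach-1* was listed at 0 in 11 of 20 *fog-2* and 9 of 16 N2 animals at 20 eggs/μL and in 1 animal of each strain at 1 egg/μL (-3.09, SE 0.44).

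Among abundant transcripts, *lec-10*, which encodes a galectin, had medians of 256 TPM at 20 eggs/μL and 549 TPM at 1 egg/μL in *fog-2*, and of 412 and 1048 TPM in N2. Its log2FC was -1.28 (SE 0.23, limma, adjusted p = 2.64e-04). *osm-11*, which encodes a secreted Notch co-ligand, had medians of 568 and 1112 TPM at 20 and 1 egg/μL in *fog-2*, and of 329 and 742 TPM in N2 (-1.04, SE 0.21). Both overlapped between densities in each strain. Of 96 C-type lectin rows 4 were lower and 0 higher, where 1.07% of all rows were lower, led by *clec-184* (-2.30) and *clec-246* (-2.05). Of 51 UDP-glucuronosyltransferase rows, enzymes that attach sugars to small molecules, 2 were lower, *ugt-11* (-2.1) and *ugt-12* (-1.70). The list medians were 0.00 for the lectins and -0.13 for the transferases, near that of all rows.

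Cytosolic ribosomal protein genes were the list with the most lower rows. Of 69 rows, 33 were lower and 0 higher at 20 eggs/μL, where 1.07% of all rows were lower, and 68 had a negative log2FC. The median over the list was -0.63, with -0.76 in *fog-2* and -0.49 in N2 fitted alone, and each change was small beside those above. *rps-6*, a protein of the small subunit, had medians of 447 TPM at 20 eggs/μL and 818 TPM at 1 egg/μL in *fog-2*, and of 447 and 756 TPM in N2. Its log2FC was -0.89 (SE 0.18, limma, adjusted p = 0.00153), and the groups overlapped in both strains. *rpl-15* (-0.80), *rpl-4* (-0.79) and *rps-2* (-0.79) fell with it. With the strains fitted alone, 26 rows were lower in *fog-2* and 0 in N2.

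Summed over the list, ribosomal proteins made up 5.49% ± 2.14 of TPM in *fog-2* animals at 20 eggs/μL (SD, n = 20) and 9.17% ± 2.95 at 1 egg/μL (SD, n = 14). The difference was -3.69 percentage points (two-sided permutation test, adjusted p = 5.20e-04). In N2 the share was 7.64% ± 4.80 at 20 eggs/μL (SD, n = 16) and 9.54% ± 3.46 at 1 egg/μL (SD, n = 13), a difference of -1.90 percentage points that did not pass (permutation test, adjusted p = 0.249). One N2 animal at 20 eggs/μL stood at 21.6%, above all others. By name digit, *fog-2* means at 20 and 1 egg/μL were 3.90% and 6.84% for digit 1, 5.34% and 10.1% for digit 2, and 7.28% and 9.56% for digit 3, lower at 20 eggs/μL in each. In N2 the means were 9.31% and 5.78% for digit 1, with a single animal at 1 egg/μL, 8.64% and 8.25% for digit 2, and 4.90% and 10.7% for digit 3. Without the animals of digit 2, 2 rows of the list passed, and without those of digit 3, 0, while the medians were -0.69 and -0.51. With the number of aligned reads as a covariate 14 rows passed and the median was -0.49. The part that the digits and the reads have in this result was not tested.

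**Figure D2:**
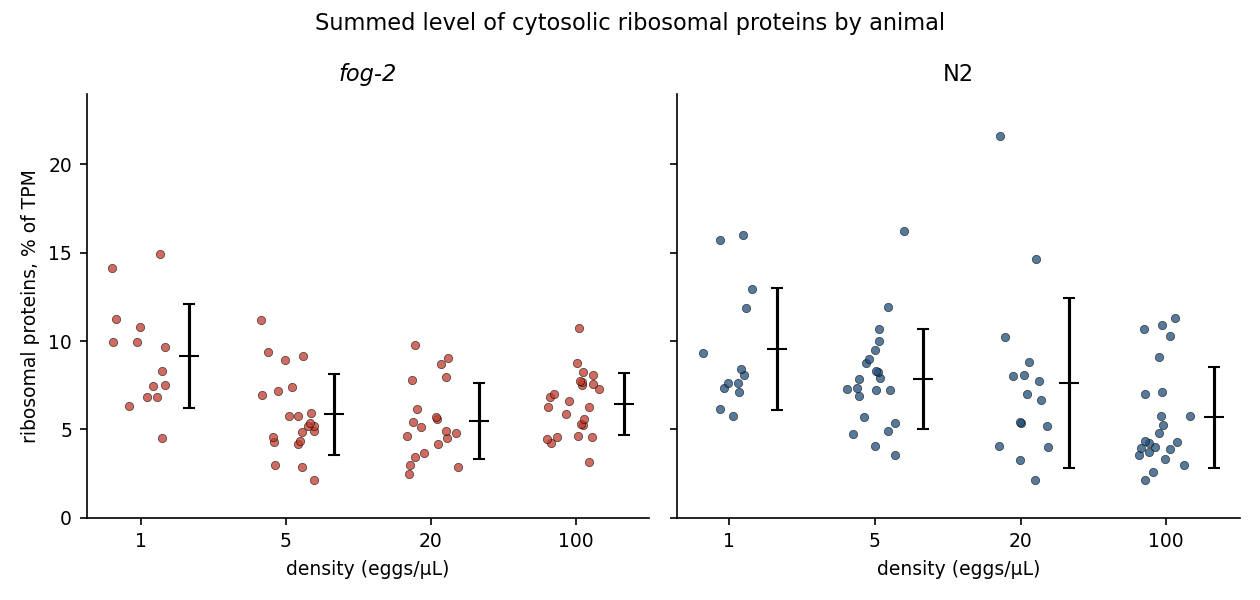
Summed level of the 69 ribosomal protein rows as a percentage of each animal's TPM (points) at 1, 5, 20 and 100 eggs/μL in *fog-2* and N2, with the mean and SD of each group beside them. In *fog-2* the means are 9.17% at 1 egg/μL and 5.49% at 20 eggs/μL, and the 2 densities overlap in both strains.

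Of 42 rows of translation factors, 3 were lower and 0 higher, and the median was -0.19. *eef-1B.1*, which encodes a subunit of the elongation factor 1 complex, had medians of 2745 TPM at 20 eggs/μL and 4684 TPM at 1 egg/μL in *fog-2* and of 3704 and 4752 TPM in N2. In *fog-2* 15 of 20 animals at 20 eggs/μL lay below all of those at 1 egg/μL, and in N2 10 of 16, and the log2FC was -0.77 (SE 0.14, limma, adjusted p = 4.65e-04). *eef-1A.1* (-0.62) and *eef-1B.2* (-0.70) were the other lower rows. *rplp-1*, an acidic ribosomal protein that the list of ribosomal proteins does not hold by name, fell by 0.82 (SE 0.16). Proteasome subunits (31 rows), nuclear-encoded respiratory chain subunits (45 rows) and autophagy genes (29 rows) had 0 rows past the threshold, with medians of -0.14, -0.10 and 0.19. All 14 mitochondrially encoded rows had a positive log2FC, with a median of 0.67, and 1 passed, *MTCE.35* (1.1, limma, adjusted p = 0.0427). This call was lost on leaving out any 1 of 27 of the animals.

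Other families held few called rows, where 0.912% of all rows were higher and 1.07% lower. Of 19 hedgehog-related rows 1 was lower, *grd-5*, a gene of the groundhog-like group, with medians of 26.4 and 54.9 TPM at 20 and 1 egg/μL in *fog-2* and of 36.7 and 67.4 TPM in N2 (-1.48, SE 0.38). Of 31 rows of lysozymes and saposin-like genes, whose products act on bacteria, *spp-14* was lower (-0.85) and *spp-13* higher (1.27). Molting genes (12 rows) and cuticlins (17 rows) had 0 rows past the threshold, with medians of 0.34 and -0.04. Of 17 rows of the AMPK and TOR pathway, which links nutrient state to growth, *rheb-1* was the 1 higher row. This small GTPase gene, an activator of TOR, had medians of 15.2 TPM at 20 eggs/μL and 3.06 TPM at 1 egg/μL in *fog-2*, where 11 of 20 animals lay above the range at 1 egg/μL, and of 6.66 and 2.51 TPM in N2 (1.35, SE 0.36, limma, adjusted p = 0.027).

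The furthest rises were smaller than the furthest falls. *F23F12.12*, which overlaps *acr-5* on the opposite strand, ranged from 78.5 to 660 TPM in *fog-2* at 20 eggs/μL (median 228) and from 8.05 to 210 TPM at 1 egg/μL (median 26.7). In N2 it ranged from 29.2 to 262 TPM at 20 eggs/μL (median 95.4) and from 0 to 103 TPM at 1 egg/μL (median 19.6). Of the animals at 20 eggs/μL, 10 of 20 *fog-2* and 7 of 16 N2 lay above all of those at 1 egg/μL, and the log2FC was 2.55 (SE 0.33, limma, adjusted p = 1.23e-07). *F07C4.6* had medians of 22.2 TPM in *fog-2* and 27.5 TPM in N2 at 20 eggs/μL and of 0 TPM in both strains at 1 egg/μL, with highest values of 415 and 295 TPM, and 31.9 and 45.7 TPM (3.02, SE 0.56). It met the filter only with the animals at 20 eggs/μL counted in. *hrg-2*, a heme-responsive gene, had medians of 214 TPM at 20 eggs/μL and 44.2 TPM at 1 egg/μL in *fog-2* and of 31.9 and 3.87 TPM in N2 (2.34, SE 0.43). *M01H9.3* was abundant in every animal, and among the higher rows named here it had the most animals above the range at 1 egg/μL. Of the animals at 20 eggs/μL, 18 of 20 *fog-2* and 10 of 16 N2 lay above every animal at 1 egg/μL, with medians of 1501 and 908 TPM at 20 and 1 egg/μL in *fog-2* and of 1826 and 1176 TPM in N2 (0.86, SE 0.14, limma, adjusted p = 6.02e-05). It did not pass without the animals of name digit 3 (adjusted p = 0.127 from the same test).

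Most of the other rows that rose furthest belong to genes known only by their sequence names, and no role is given for them here. *W02D7.11* had medians of 301 TPM at 20 eggs/μL and 71.4 TPM at 1 egg/μL in *fog-2*, where 15 of 20 animals lay above the range at 1 egg/μL, and of 101 and 46.9 TPM in N2, where 0 of 16 did (2.14, SE 0.42). *F22B7.9* showed the reverse, with 3 of 20 *fog-2* and 12 of 16 N2 animals above the range at 1 egg/μL. Its medians were 45 TPM at 20 eggs/μL and 19.6 TPM at 1 egg/μL in N2, and it ranged from 25 to 311 TPM and from 0 to 258 TPM at these densities in *fog-2* (2.05, SE 0.37). *Y66C5A.1* was at a median of 0 TPM in both strains at 1 egg/μL and at 12.5 TPM in *fog-2* and 10.9 TPM in N2 at 20 eggs/μL (2.21, SE 0.47). It likewise met the filter only with the animals at 20 eggs/μL counted in. *F15E6.10* (2.29), *T05C1.5* (2.22), *K09C8.7* (2.15) and *T24D3.2* (2.13) were of like size, and *F15E6.10* overlaps *F15E6.9* on the opposite strand. *R09E10.13* had 2.38 (SE 0.64, limma, adjusted p = 0.0273), with 13 of 20 *fog-2* and 3 of 16 N2 animals above the range at 1 egg/μL, and did not pass without at least 1 of the single animals.

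Among abundant transcripts, *spig-15* had medians of 1908 TPM at 20 eggs/μL and 908 TPM at 1 egg/μL in *fog-2* and of 1945 and 1184 TPM in N2 (0.86, SE 0.17). *C03G6.17* had medians of 662 and 517 TPM at these densities in *fog-2* and of 1242 and 553 TPM in N2, where 11 of 16 animals at 20 eggs/μL lay above all at 1 egg/μL (0.79, SE 0.17). *F59E11.7* had medians of 864 and 380 TPM at 20 and 1 egg/μL in *fog-2* and of 142 and 67.6 TPM in N2 and rose by 1.31 (SE 0.26).

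Small heat shock genes of the hsp-12 group and a metallothionein gene, which DAF-16 is known to activate, were higher at 20 eggs/μL. *hsp-12.6* had medians of 132 TPM at 20 eggs/μL and 23.4 TPM at 1 egg/μL in *fog-2*, with highest values of 760 and 173 TPM, and medians of 67.2 and 45.6 TPM in N2. Its log2FC was 2.55 (SE 0.59, limma, adjusted p = 0.00666). *hsp-12.3* had medians of 419 and 56.3 TPM at these densities in *fog-2* and of 254 and 84.9 TPM in N2 (2.07, SE 0.42, limma, adjusted p = 0.00155). *mtl-1*, a metallothionein gene, had medians of 3176 and 1850 TPM in *fog-2* and of 3202 and 1768 TPM in N2 (0.98, SE 0.19). All 3 overlapped between densities, and 9, 10 and 9 of 20 *fog-2* animals at 20 eggs/μL lay above the range at 1 egg/μL. Over 13 rows of genes that DAF-16 activates, 3 were higher and 0 lower, 12 were positive and the median was 0.79, among them the catalase genes *ctl-3* (0.90, limma, adjusted p = 0.094) and *ctl-1* (0.79, adjusted p = 0.18) and the superoxide dismutase gene *sod-3* (0.98, adjusted p = 0.24). Of 14 small heat shock rows the 2 hsp-12 genes were the higher ones, and 0 of the hsp-16 rows passed. *hsp-12.3*, *hsp-12.6* and *mtl-1* did not pass without the animals of name digit 2 or without those of digit 3.

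**Figure D3:**
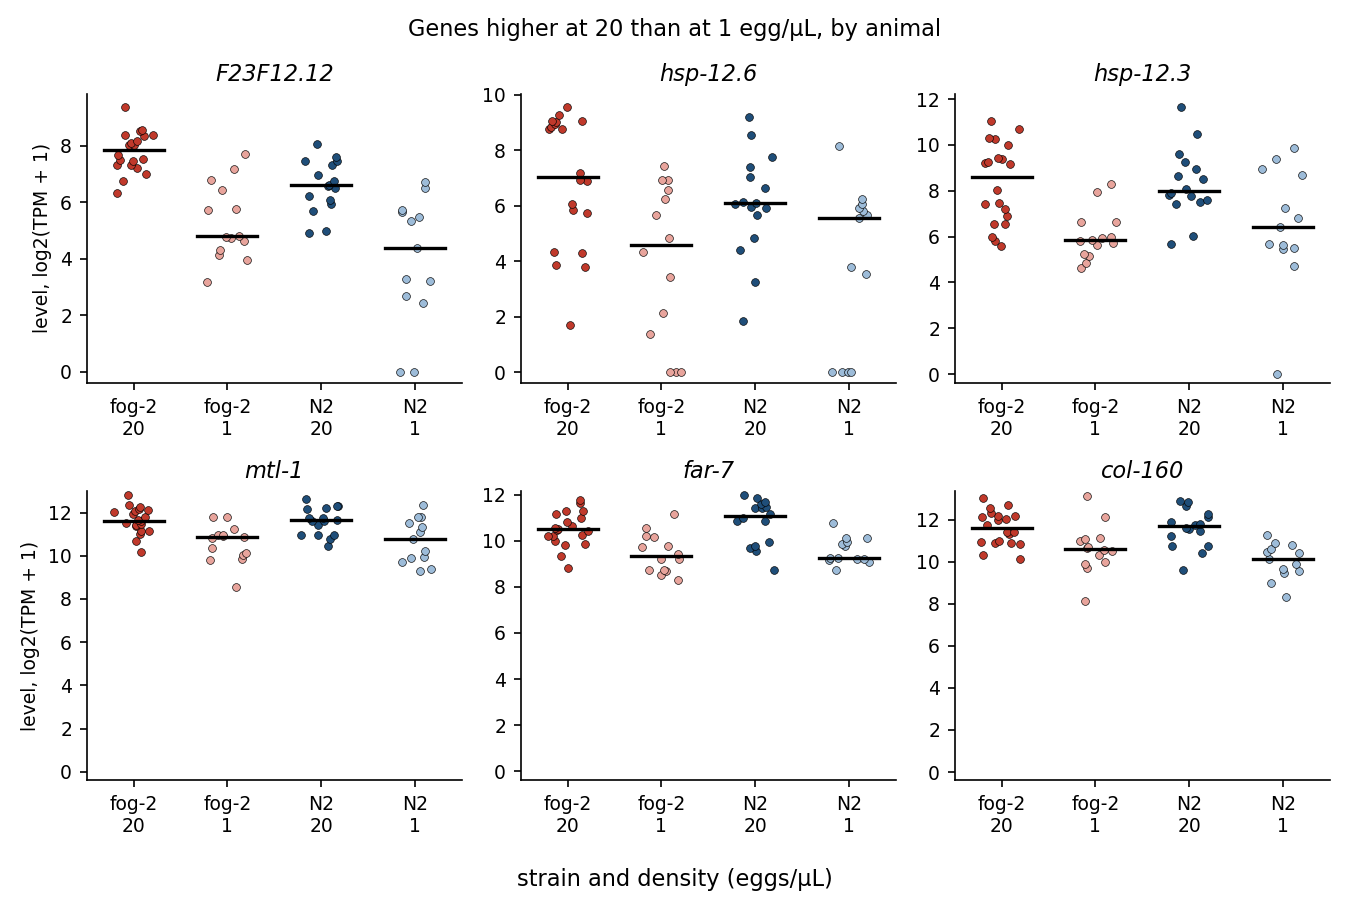
Levels of *F23F12.12*, *hsp-12.6*, *hsp-12.3*, *mtl-1*, *far-7* (row *K01A2.2a*) and *col-160* as log2(TPM + 1) in each animal (points) of *fog-2* and N2 at 20 and 1 egg/μL, with the median of each group as a bar. The densities overlap for each of the 6 genes in both strains, and the medians are higher at 20 eggs/μL.

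*far-7*, which encodes a fatty acid and retinol binding protein, had 2 rows. In the more abundant one the medians were 1449 TPM at 20 eggs/μL and 641 TPM at 1 egg/μL in *fog-2*, and 2152 and 615 TPM in N2, where 11 of 16 animals at 20 eggs/μL lay above those at 1 egg/μL (log2FC 1.13, SE 0.20, limma, adjusted p = 1.75e-04). *hgo-1*, which encodes homogentisate dioxygenase of tyrosine breakdown, rose by 0.82 (SE 0.17). For the families that follow, 0.912% of all rows were higher and 1.07% lower. Of 55 cytochrome P450 rows, enzymes that oxidize lipids and foreign compounds, 5 were higher and 0 lower, with a median of 0.26. *cyp-34A9* had medians of 245 and 101 TPM at 20 and 1 egg/μL in *fog-2* and of 184 and 71.1 TPM in N2 (1.52, SE 0.25), and *cyp-13A10* had a log2FC of 1.98. Of 42 glutathione S-transferase rows 4 were higher, among them *gst-41* (1.67), and 1 was lower, *gst-26* (-1.98). Of 46 transthyretin-related rows 3 were higher and 0 lower, led by *ttr-41* (1.49), and the median was 0.34.

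Of 87 cuticle collagen rows 6 were higher and 2 lower, where 0.912% and 1.07% of all rows were, and the median was 0.05, and -0.03 after quantile normalization. *col-160* had medians of 3097 TPM at 20 eggs/μL and 1575 TPM at 1 egg/μL in *fog-2* and of 3316 and 1140 TPM in N2, where 11 of 16 animals at 20 eggs/μL lay above those at 1 egg/μL (log2FC 1.24, SE 0.23, limma, adjusted p = 2.64e-04). It overlaps *col-159* on the same strand (1.24), so their values are not separate. *col-101* had 2.16 and lies opposite *drl-1*, while *col-144* (-1.22) and *col-166* (-1.14) were lower.

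In metabolism, 0 of 19 glycolysis rows, 0 of 15 rows of fatty acid desaturases and elongases and 0 of 14 rows of fasting lipases and acyl-CoA use passed. The pyruvate kinase gene *pyk-2* had -0.67 (SE 0.21, limma, adjusted p = 0.0782) and the desaturase gene *fat-2* -0.33 in its first row (adjusted p = 0.362). Of 22 rows of the methionine cycle and phosphatidylcholine synthesis 1 was lower, *ahcy-1*, which encodes S-adenosylhomocysteine hydrolase. Its medians were 181 TPM at 20 eggs/μL and 327 TPM at 1 egg/μL in *fog-2* and 155 and 212 TPM in N2 (-0.69, SE 0.19, limma, adjusted p = 0.0265), and the S-adenosylmethionine synthetase gene *sams-1* had -0.62 (adjusted p = 0.321). The carbonic anhydrase gene *cah-4* was the 1 lower of 6 rows of its family (-1.11, SE 0.26, limma, adjusted p = 0.00917), with medians of 98.5 and 213 TPM at 20 and 1 egg/μL in *fog-2* and of 101 and 233 TPM in N2. *pck-2*, a phosphoenolpyruvate carboxykinase gene of gluconeogenesis, rose by 0.75 (SE 0.20), the 1 of 14 rows of its list to pass. All 11 rows of ascaroside synthesis genes were positive, with a median of 0.57, and 1 passed, *maoc-1*, an enoyl-CoA hydratase gene (1.04, limma, adjusted p = 0.0371). With the strains fitted alone, 7 of these 11 rows were positive in *fog-2* and 9 in N2. Without the animals of name digit 1 the median was 0.12, 2 rows were negative and 0 passed, and the call of *maoc-1* was also lost on leaving out any 1 of 8 of the animals.

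**Figure D4:**
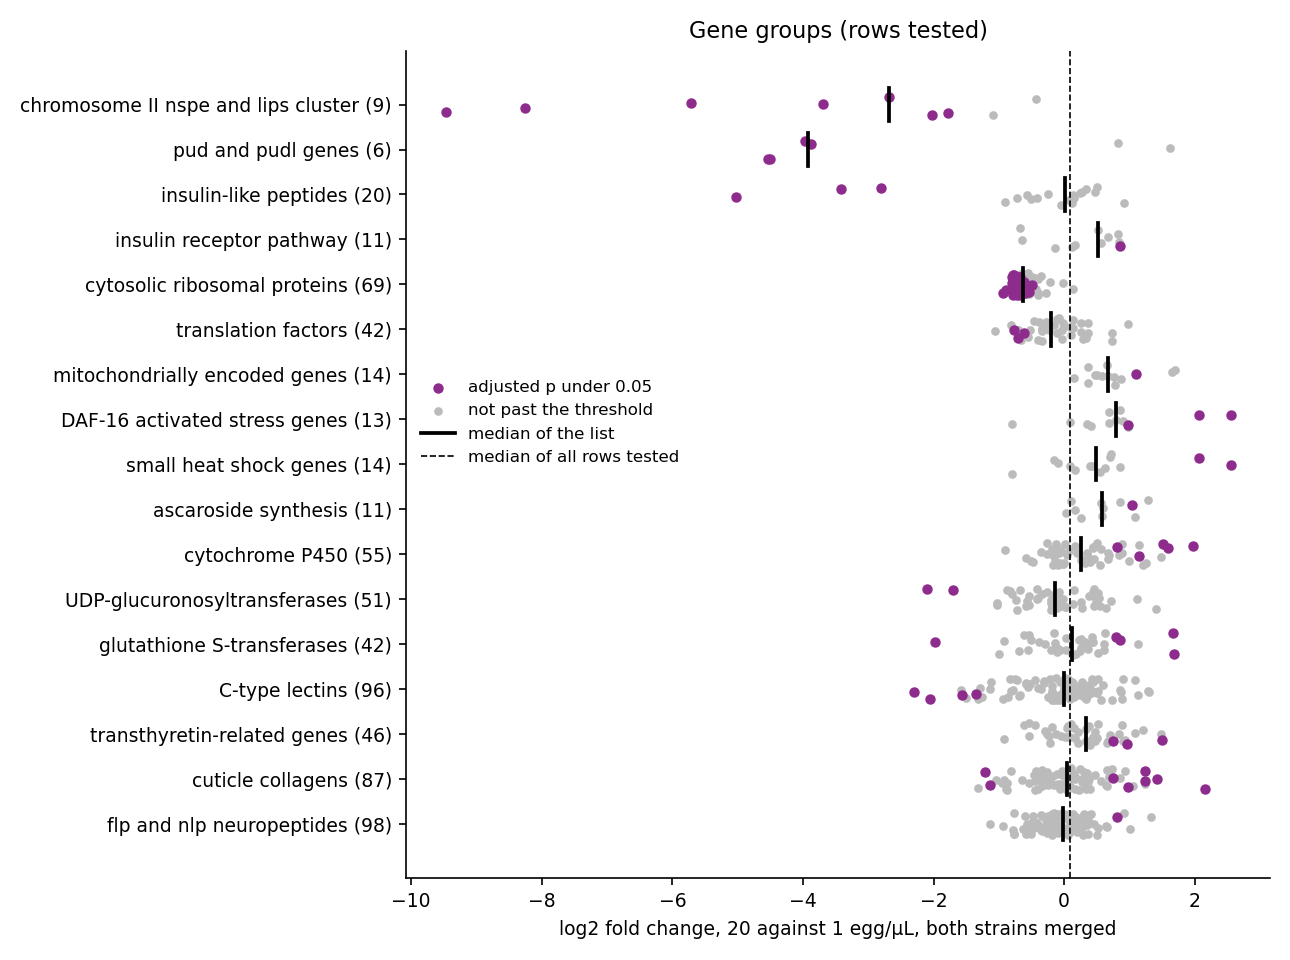
Log2FC of 20 over 1 egg/μL in both strains merged (points) for the rows of 17 gene lists, with the number of rows tested in parentheses, rows past the threshold in purple, the median of each list as a bar and the median of all rows as a dashed line. The chromosome II stretch and the pud genes lie far below the line, and ribosomal proteins lie narrowly below it with a median of -0.63.

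The strains share no animal, so that each can be set against the other. In *fog-2* alone 77 rows were higher (0.540%) and 103 lower (0.722%), 180 in all (1.26%), and in N2 alone, with fewer animals, 3 (0.021%) and 10 (0.0701%). Why fewer rows passed in N2 was not tested. Of the rows called in *fog-2*, 70 of 77 higher ones were also positive in N2 (90.9%, where 58.1% of all rows were), and 95 of 103 lower ones were also negative (92.2%, where 41.8% of all rows were). All 13 rows called in N2 had the same sign in *fog-2*, and 5 lower rows were called in both. Across all rows the log2FC values of the 2 strains correlated with Pearson's r = 0.30 and Spearman's rho = 0.20, and rows are no replicates of each other.

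**Figure D5:**
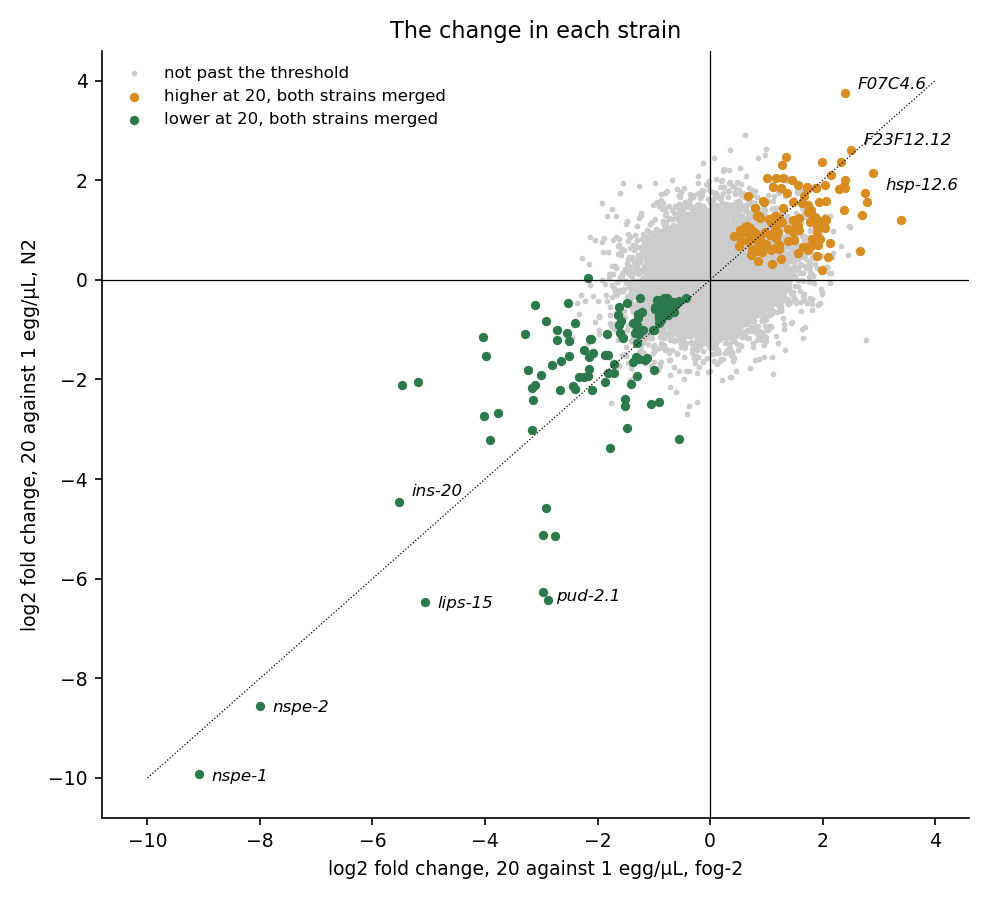
Log2FC of 20 over 1 egg/μL in *fog-2* (horizontal) and in N2 (vertical) for each of the 14261 rows, with the 130 higher and 152 lower rows of the merged comparison in color and the line of equal change dotted. Rows called in the merged comparison lie almost all in the lower left and upper right of the plot, with *nspe-1* and *nspe-2* at the lower left end. They were called on these same animals with the strains merged, which by itself favors like signs, so their place is no check of one strain by the other.

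No row passed limma's test of the interaction of strain and density (0 rows, and 604 at an unadjusted p under 0.05). Nearest to the threshold was *nspe-3*, at -3.20 in N2 and at -0.55 in *fog-2* (limma, adjusted p = 0.0787). It passed with a pseudocount of 10 (adjusted p = 0.0475) and after quantile normalization (adjusted p = 0.0116), and it was at or near 0 in most *fog-2* animals at both densities. For *F35E8.10* the log2FC was -2.11 in N2 and -5.48 in *fog-2*, and for *pud-2.1* -6.27 in N2 and -2.96 in *fog-2*, and these were not shown to differ.

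The 20 eggs/μL animals lay at different points between the other densities, depending on the gene. Steps between densities were fitted over the animals of all 4 densities for the same rows. They share animals with the comparison of 20 with 1 egg/μL and are given side by side. From 1 to 5 eggs/μL 130 rows were higher (0.912%) and 38 lower (0.266%), from 5 to 20 eggs/μL 4 (0.028%) and 83 (0.582%), and from 20 to 100 eggs/μL 54 (0.379%) and 13 (0.0912%). From 1 to 100 eggs/μL they numbered 568 (3.98%) and 307 (2.15%).

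*nspe-1* and *nspe-2* fell at both early steps, and the step from 20 to 100 eggs/μL did not pass for either. Both were listed at 0 in most animals at 20 eggs/μL, so that a further fall could not have been seen. For *nspe-1* the log2FC values of the 3 steps, from low to high density, were -3.14, -6.33 and 0.68 (limma, adjusted p = 6.26e-08, 2.60e-31 and 0.535). In *fog-2* its medians were 931, 188, 0 and 0 TPM at 1, 5, 20 and 100 eggs/μL, and in N2 1135, 181, 0 and 0 TPM. *lips-15* and *R11D1.3* kept falling. For *lips-15* the steps were -2.02, -3.69 and -2.92 (limma, adjusted p = 0.0507, 3.01e-07 and 2.59e-04), and its medians in *fog-2* were 1120, 264, 48.8 and 0 TPM. For *R11D1.3* they were -0.05, -3.22 and -3.68 (limma, adjusted p = 0.981, 1.50e-08 and 3.90e-11), with *fog-2* medians of 352, 434, 32.9 and 0 TPM, so that this gene showed no step below 5 eggs/μL in the test. *ins-20* and *F35E8.10* had log2FC values of -4.01 and -2.92 at the step from 5 to 20 eggs/μL, and -0.36 and 0.10 above it, which did not pass. *ins-20* was listed at 0 in most animals at 20 eggs/μL, which left little room for a further fall. For *pud-1.1* both upper steps passed, at -3.45 and -2.57 (limma, adjusted p = 2.66e-04 and 0.0278). *ins-6* (-2.51) and *lips-16* (-2.18) fell from 1 to 5 eggs/μL, and their later steps did not pass. At 20 eggs/μL both had a median of 0 TPM in both strains, which left little room for a fall above it. Of the 9 rows of the chromosome II stretch, 4 were lower and 1 higher from 1 to 5 eggs/μL. From 5 to 20 eggs/μL 6 were lower and 0 higher, and from 20 to 100 eggs/μL 1 and 0.

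The ribosomal protein rows had medians of -0.50, -0.14 and -0.02 at the 3 steps, and 14, 0 and 0 of 69 were lower, while 58 were lower at 100 against 1 egg/μL. Their mean share of TPM at 1, 5, 20 and 100 eggs/μL was 9.17%, 5.85%, 5.49% and 6.42% in *fog-2*, and 9.54%, 7.85%, 7.64% and 5.70% in N2. The median of all rows was 0.12, -0.04 and 0.07 at these steps. *F23F12.12* rose at the first 2 steps, by 1.42 and 1.13 (limma, adjusted p = 0.00246 and 0.0188), and its step from 20 to 100 eggs/μL was 0.83 (adjusted p = 0.177). *hrg-2* (2.21), *cyp-34A9* (1.20), *gst-41* (1.46) and *hsp-12.3* (1.48) rose from 1 to 5 eggs/μL, and their later steps did not pass. Of the 14 small heat shock rows 6 were higher from 1 to 5 eggs/μL, 4 were lower from 5 to 20 eggs/μL and 0 passed from 20 to 100 eggs/μL, with medians of 1.28, -0.14 and 0.09. *acs-7*, an acyl-CoA synthetase gene of ascaroside synthesis, had 1.08 at 20 against 1 egg/μL (limma, adjusted p = 0.175) and rose by 2.03 from 20 to 100 eggs/μL (adjusted p = 6.88e-06). *pyk-2* likewise passed only at the step from 20 to 100 eggs/μL, at -0.84 (limma, adjusted p = 0.016), of the 3 steps. Cuticle collagens had 4 of 87 rows higher from 1 to 5 eggs/μL, 7 lower from 5 to 20 eggs/μL and 0 past the threshold from 20 to 100 eggs/μL, with medians of 0.05, -0.0023 and 0.47 at these steps.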

How the data were processed

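Single L1s of *fog-2* and N2 arrested at 20 or 1 egg/μL were compared by RNA-Seq. Reads of rRNA and duplicates were discarded by the authors before RSEM quantified the rest, and Bowtie and ce11 are named in the submitters' processing notes. Versions are not given in the sources used here. The deposited values are TPM, with 47639 transcript rows for each strain. Labels matched 146 columns to an animal, and 8 columns, all of *fog-2* at 1 egg/μL, to a strain and density only. Symbols were taken from RefSeq, or else from Ensembl, whose WBcel235 annotation gave the coordinates. The sources do not state that reads were counted by strand, so overlapping genes on opposite strands are not told apart.

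Models of log2(TPM + 1) were fitted with limma 3.58.1 in R 4.3.3, with the data.table package (version 1.17.8). Permutation tests and plots used Python 3.11.15 and its packages scipy 1.17.1, numpy 2.4.6, matplotlib 3.10.9 and pandas 2.3.3. The merged comparison had strain as a covariate, each strain was fitted alone, and an interaction term tested their difference. Values per animal were compared by two-sided permutation tests with 100000 resamples. The fit was tested on simulated data, made of shuffled residuals with known changes. It recovered 27.4% of the rows with an absolute log2 change of 1 and 90.8% of those with 2. Rows that did not pass are thus not shown to be unchanged.

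The genes named are those in the study's text, the 15 called rows of 1 sign in both strains that moved furthest in each direction, up to 4 rows per list, up to 10 called rows in each direction with a mean of at least 500 TPM, and *fog-2*. The rule also took rows past the threshold in the interaction, of which there were 0. No row carried the name *cyp-34A4*. *nspe-3*, *nspe-4*, *nspe-5*, *nspe-7*, *pudl-1*, *pudl-2*, *ctl-1*, *sod-3*, *daf-28* and *col-166* fall outside this rule and were chosen after their values were seen. The members, the 43 lists and the rule were chosen with earlier results of these data known. The alternatives changed the pseudocount, filter, normalization, covariates, variance model, threshold, the isoform rows and the animals included. The study's table of reads served only as a covariate. Depth is not held in TPM, so no counting interval is given.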

Additional observations from a re-analysis of the deposited data

How the results depend on the processing

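With all animals, 130 rows were higher and 152 lower. Leaving out 1 animal at a time gave 94 to 177 higher and 130 to 185 lower rows. Counts moved most with the digit in the animals' names: 2 and 6 with means by digit, 31 and 32 without digit 2, and 4 and 12 without digit 3, where fewer animals entered. With the digit as a random effect 68 were higher and 104 lower, and with the digit as a replicate block 132 were lower, with the higher count within 1.5 times of 130. Same-numbered groups had correlations of 0.13, 0.0728 and 0.124 in *fog-2*, each above those of unlike digits (-0.108 to 0.0457). In N2 they had -0.0758, -0.0339 and -0.0727. The values were centered on the mean of each strain and density, which ties these correlations to each other. The digits were not taken to pair the animals, and whether animals of a digit share a source was not tested. At an adjusted p under 0.01, 50 and 75 rows passed. In *fog-2* alone 0.827% of rows were higher with detected rows as a covariate, against 0.540% without it, and 0% were higher and 0.0491% lower with means by digit. In N2 alone, where 0.021% were higher and 0.0701% lower, 0.0421% were higher after quantile normalization, 0.0421% higher and 0.126% lower with detected rows as a covariate, and 0% and 0.0351% with means by digit. The interaction gave 1 row with a pseudocount of 10 and 1 after quantile normalization. The difference in detected rows in *fog-2* was -26.3 at 1 TPM, 43.6 above 0 TPM and 100.7 at 5 TPM, none past the threshold. Of 84 named rows that passed, 74 also passed without each single animal, but only 9 without each name digit in turn. Without digit 3, 71 of the 84 lost their call, without digit 2, 49, and with means by digit, 77. All kept their sign under each alternative run that held the row. The runs reuse the animals on which the rows were called, so a kept sign is no independent check. *nspe-7*, which did not pass, reversed to 0.146 with means by digit and 0.253 without digit 3. The causes were not tested. N2 had fewer animals than *fog-2*, and transcripts listed at 0 in many animals have log2FC values that depend on the pseudocount.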
